A study of Mus musculus with 16 samples.

Results

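The nuclear genes that encode subunits of the oxidative phosphorylation (OXPHOS) machinery were followed in macrophages and microglia sorted from mouse brain. Members were all gene symbols that start with Nduf followed by a, b, c, s or v and then a digit or the letter b (complex I), that are Sdha to Sdhd (complex II), that start with Uqcr (complex III), with Cox4 to Cox8 followed by a, b or c (complex IV), or with Atp5 (complex V). Of the 105 symbols of the reference that match these patterns, 82 were listed in at least 1 library, out of 18580 genes listed in all. They comprise 38 genes of complex I, 4 of complex II, 8 of complex III, 15 of complex IV and 17 of complex V. Among the 23 unlisted symbols 4 are protein coding (Ndufb1, Ndufb4b, Ndufb4c and Cox8c) and the others are pseudogenes. The patterns leave out Cox4i1 and Cox4i2 of complex IV as well as Cyc1 and Cycs, which are given separately.

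The series compared CD163KO mice (Cd163 encodes the scavenger receptor for hemoglobin-haptoglobin) with WT C57BL/6N littermates of both sexes, injected bilaterally into the striatum with α-synuclein monomers (MONO) or pre-formed fibrils (PFF) at 12 weeks of age. Cells were taken 2 months p.i., sorted as CD11b+ CD45 low to intermediate (microglia) or CD11b+ CD45 high (macrophages), and their RNA was sequenced by SMART-seq2, a method that copies full-length mRNA from small inputs. There was 1 library for each of the 8 combinations of sex (F, M), genotype and treatment in each population, 16 in all, and no PBS or uninjected library was analysed here. The methods name triplicates, but how they relate to the single table of each combination is not given, and no label ties a library to animals. Groups were therefore formed from libraries that differ in the other factors, and p-values measure the spread between such libraries. The male CD163KO MONO group was excluded by the study because its technical replicates disagreed and was left out of all main tests here. The protocol gives 200000 to 500000 cells for a microglia library and 10000 to 30000 for a macrophage library, so input and population cannot be told apart.

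OXPHOS feeds electrons from NADH (complex I, NADH:ubiquinone oxidoreductase) and succinate (complex II, succinate dehydrogenase) through ubiquinone and complex III to cytochrome c and complex IV (cytochrome c oxidase), and complex V (ATP synthase) uses the resulting proton gradient to make ATP. A few core subunits of complexes I, III, IV and V are encoded in mitochondrial DNA, while the nuclear members come mostly from short, abundant transcripts made in nearly every cell. In macrophages and microglia, inflammatory activation is known to move metabolism from OXPHOS towards glycolysis.

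Libraries differed in ways that bear on every result. Estimated counts summed to between 8648751 and 21433841 per library. Summed markers of homeostatic microglia reached 15742 to 41913 FPKM (reads scaled to transcript length and library size) in microglia and 897 to 1714 in macrophages, and the 10 neutrophil markers, all of them listed, summed to 22068 to 134238 FPKM in macrophages and 946 to 2698 in microglia. Border-associated macrophage markers summed to 1809 to 5032 FPKM in macrophages and to at most 126 in microglia. All 9 border-associated and all 10 microglial markers were listed. Choroid plexus markers summed to 84.9 to 12622 FPKM in macrophages (highest in F WT MONO) and 263 to 2534 in microglia (highest in M WT MONO). Pituitary markers summed to 0 to 309 FPKM in macrophages (highest in F WT PFF) and 0.14 to 158 in microglia (highest in M CD163KO PFF), and the part of both lists in the comparisons of genotype and treatment was not tested. The CD45 high gate takes in neutrophils and NK cells by the study's methods, and in these bulk libraries fewer cells of a type cannot be told apart from less RNA per cell. Cd163 itself had 748 to 5275 counts in WT macrophages and 0 to 1 in CD163KO macrophages, whereas in microglia WT libraries (the lowest at 0) overlapped CD163KO libraries (5 to 23), so Cd163 does not separate the genotypes there. The library labelled F CD163KO MONO microglia held 799 counts of Y-linked genes, against 0 to 2 in the other microglia libraries labelled female, 434 to 1997 in those labelled male and 0 in F CD163KO MONO macrophages. These counts go against its label for sex, and whether libraries were exchanged was not tested. It entered the pairs and the fits as labelled. In the male WT PFF pair, macrophages listed 8378 genes above 0 (9775 to 12992 in the others) and the top gene of microglia, Cst3, took 19.7% of counts (18.3% in male CD163KO MONO, 4.62% to 5.54% in the others).

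Promoters are shown because the members, chosen by name alone, shared sequence there more often than other genes. RefSeq start sites of GRCm38.p6 were matched for 69 of the 82 members (74 windows of 250 bases before to 50 bases after the start). The motif CGCANGCG, the core recognised by nuclear respiratory factor NRF1, was present on either strand in 29 of these windows (39.2%) and in 8.21% of all 32851 windows of the table. The ETS motif CCGGAAG, bound by the NRF2/GABP factor, was in 23.0% of member windows and 8.86% of all windows, and AAGATGG, the core of the YY1 site, in 14.9% and 6.34%. AAGGTCA, part of the site of estrogen-related receptors, was in 10.8% and 4.72%, and TATAAA in 12.2% and 13.6%. The 120 bases before the start of 4 members follow, 5′ to 3′ on the coding strand, each the member of its complex with the largest population difference that holds an NRF1 match in this stretch, with the match in capitals (no member of complex III had one here). Ndufa12 lies at chr10:94198915-94199034 (plus strand), Sdhd at chr9:50603850-50603969 (minus), Cox6a1 at chr5:115348959-115349078 (minus) and Atp5k at chr5:108434400-108434519 (minus).
Ndufa12: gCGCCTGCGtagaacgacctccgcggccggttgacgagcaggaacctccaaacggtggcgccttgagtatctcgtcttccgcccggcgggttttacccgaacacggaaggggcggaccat
Sdhd: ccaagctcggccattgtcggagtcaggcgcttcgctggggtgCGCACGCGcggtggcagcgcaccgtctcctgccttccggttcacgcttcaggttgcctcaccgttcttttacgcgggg
Cox6a1: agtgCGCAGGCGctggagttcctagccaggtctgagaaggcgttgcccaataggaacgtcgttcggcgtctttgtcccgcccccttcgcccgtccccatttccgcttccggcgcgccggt
Atp5k: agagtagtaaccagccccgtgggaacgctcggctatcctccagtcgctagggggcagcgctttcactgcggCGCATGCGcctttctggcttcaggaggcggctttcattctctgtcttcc

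Members were among the most abundant transcripts of both populations. The median member ranked between percentile 96.1 and 97.8 of all genes by FPKM in each of the 16 libraries. Over all libraries 77 members had a median FPKM of at least 10, and 46 of at least 100. The members together took 0.40% to 1.42% of the counts of a macrophage library (median 0.728%) and 0.246% to 0.846% of a microglia library (median 0.774%). The highest share, 1.42%, belonged to M WT MONO macrophages and the lowest, 0.246%, to M WT PFF microglia, so the shares of the populations overlapped. Within the members' FPKM, complex I held 39.6% to 45.2% in macrophages and 42.0% to 47.0% in microglia, complex III 11.6% to 13.4% and 11.1% to 13.8%, and complex V 19.4% to 23.1% and 19.6% to 22.7%. Complex IV held 19.1% to 22.8% in macrophages and 16.9% to 19.6% in microglia, with overlap only at the ends. Complex II held 2.1% to 4.8% and 3.3% to 4.8%.

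**Figure D1:**
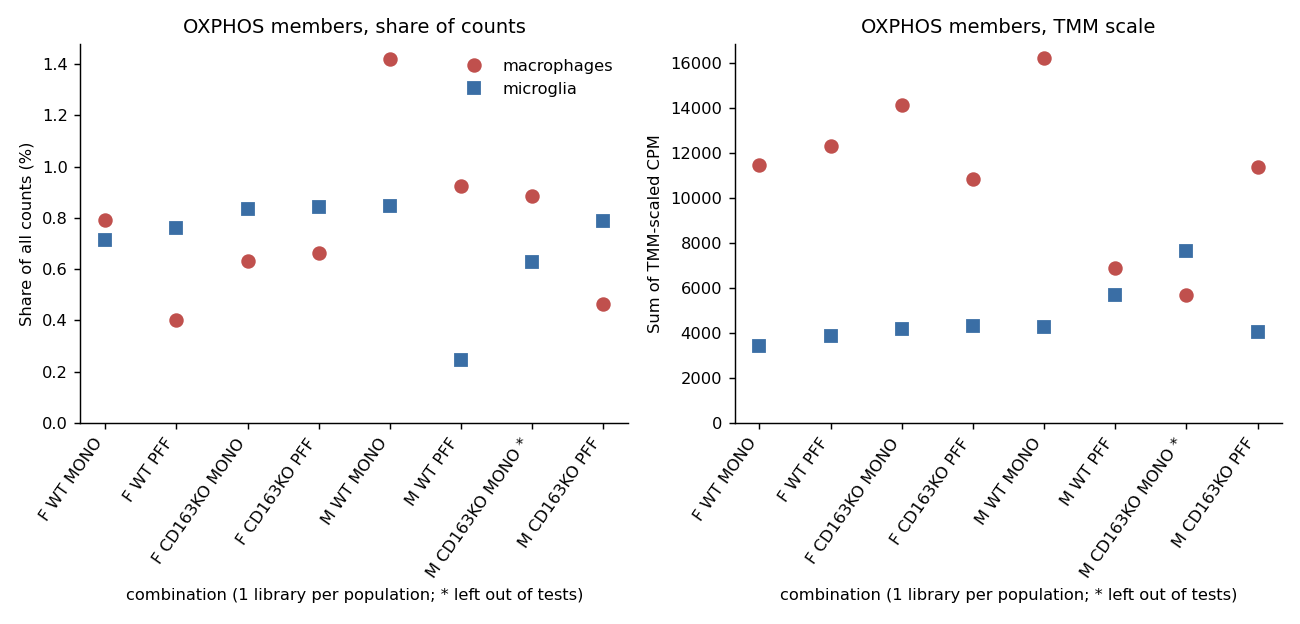
Summed level of the 82 members in each library (x axis: combination of sex, genotype and treatment), as a share of all counts (left, %) and as TMM-scaled CPM (right). The latter are counts scaled to library size times a TMM factor, which sets the bulk of genes equal between libraries. These factors ran from 0.32 to 1.55 in macrophages and from 0.43 to 2.08 in microglia. Circles are macrophages and squares microglia, with 1 library each and no error bar. On the left the populations overlap, from 0.246% to 1.42%, while on the right microglia lie below macrophages in every pair but male CD163KO MONO, where they are above (7639 against 5693).

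The leading members by FPKM were mostly small accessory subunits. In complex I these were Ndufb8 (median 431 FPKM, range 179 to 1102 over the 8 macrophage libraries, and 311, range 128 to 462, over the 8 microglia libraries), Ndufb7 (366 and 227) and Ndufa3 (425 and 224). In complex III Uqcr11 led with medians of 437 FPKM in macrophages and 396 in microglia, ahead of Uqcr10 (264 and 209) and the hinge protein Uqcrh (186 and 151). Complex IV was led by Cox6b1, which bridges the oxidase dimer (601 and 386), Cox6a1 (431 and 352) and Cox7c (321 and 209), and complex V by Atp5j, coupling factor 6 of the stalk (304 and 281), Atp5l, the g subunit (303 and 203), and Atp5j2, the f subunit (176 and 201). In complex II the iron-sulfur subunit Sdhb led (170 and 230), followed by the membrane anchor Sdhd (68.0 and 85.0) and the flavoprotein Sdha (32.8 and 74.6). For all 3 the microglial median FPKM was the higher, but the ranges of the populations overlapped.

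Shares of FPKM show which paralog gave most of the RNA in these bulk libraries. Cox6a1, the widely expressed form, made up at least 90.4% of the Cox6a FPKM, and its heart and muscle form Cox6a2 was above 0 in 6 of 8 macrophage and 8 of 8 microglia libraries. In microglia Cox6a2 reached 7.45 to 36.4 FPKM (share 2.05% to 9.46%), and in macrophages 0 to 26.7 FPKM. Cox6b1 made up at least 97.1% of Cox6b, Cox8a at least 93.0% of Cox8a and Cox8b, Ndufa4 at least 96.8% of Ndufa4 and Ndufa4l2, and Cox4i1 at least 98.8% of Cox4i1 and Cox4i2. The muscle forms Cox8b and Cox7a1, the testis forms Cox6b2 and Cox7b2 and the hypoxia-linked Ndufa4l2 had median FPKM of 0.995, 2.55, 2.17, 0 and 0.165 over the 16 libraries. The highest Cox8b value, 29.7 FPKM, was in M WT PFF macrophages, against at most 4.98 FPKM in any other library, and the highest Cox6b2 and Cox7a1 values, 25.6 and 17.0 FPKM, were both in M WT MONO macrophages. Cox7a2l, a factor of respiratory supercomplexes, held 49.1% to 87.1% of the Cox7a FPKM in macrophages and 62.1% to 77.9% in microglia, and Cox7a2 most of the rest.

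The c ring of ATP synthase is made of 1 protein encoded by Atp5g1, Atp5g2 and Atp5g3, which differ in their import sequences. Atp5g1 was the main source in every library (46.2% to 70.7% of the c-ring FPKM in macrophages and 44.3% to 66.4% in microglia). Atp5g2 held 14.7% to 37.0% and 23.8% to 39.3%, and Atp5g3 4.75% to 27.9% and 9.47% to 21.4%. These ranges overlapped between the populations for all 3 genes. Both M WT MONO libraries had the highest Atp5g1 share of their population (70.7% and 66.4%), and both M WT PFF libraries the highest Atp5g3 share (27.9% and 21.4%).

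**Figure D2:**
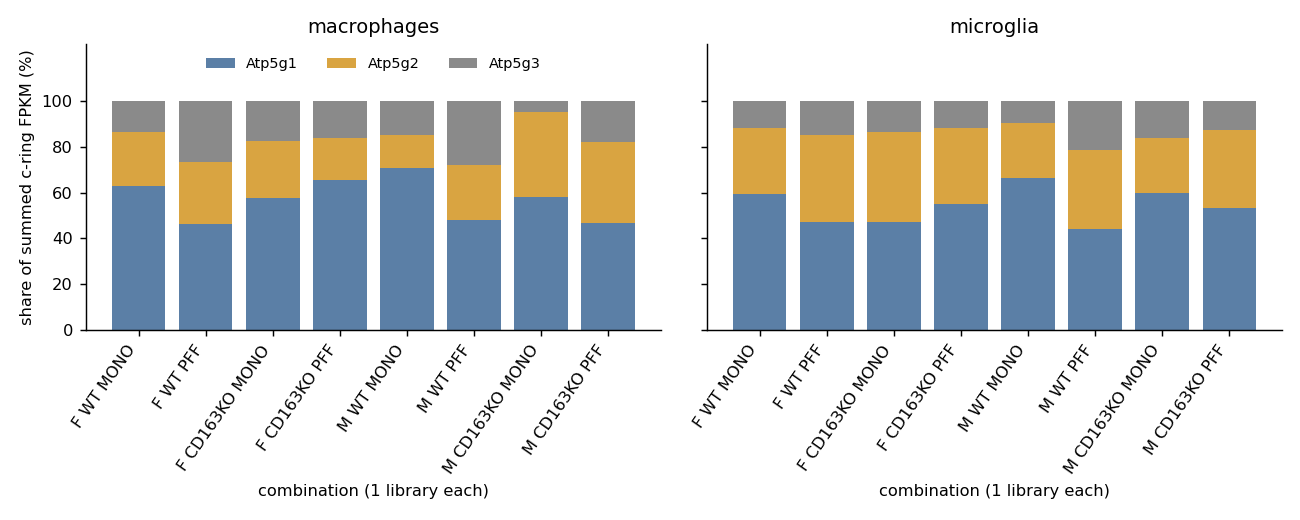
Share of the summed c-ring FPKM (y axis, %) held by Atp5g1, Atp5g2 and Atp5g3 in each library of macrophages (left) and microglia (right), 1 bar per library with no error bar. Atp5g1 is the largest part of every bar, from 44.3% to 70.7%.

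Microglia and macrophages were compared within the 7 matched combinations by edgeR's quasi-likelihood test on counts scaled by the trimmed mean of M-values (TMM), which sets the bulk of genes equal between libraries. On this scale 56 of the 81 members tested were lower in microglia (adjusted p under 0.05) and none was higher, against 11.7% of 13704 genes lower and 6.48% higher, whereas on library totals alone 5 members were higher and none lower. By complex, 25 of 38 members of complex I, 1 of 4 of complex II, 5 of 8 of complex III, 10 of 14 of complex IV and 15 of 17 of complex V were lower. The median difference of the members was -1.58 on the log2 scale, and that of all genes 0.35. DESeq2, which also centres on the bulk of genes, gave 59 lower and none higher, with 16.1% of all genes lower and 17.8% higher, and limma on log2(FPKM + 1) gave 3 lower and 6 higher, with 5.08% of all genes lower and 42.0% higher. Library totals moved the median of all genes to 1.96, and 41.7% of all genes were then higher and 4.37% lower. The members' median was -0.16 on that scale, and 77 of 81 members lay below the median gene, as did 78 of 81 with TMM. Cox7b2 was too low to be tested.

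Counts are given by the role of a subunit, without a test between roles. Levels in CPM are on the TMM scale from here on. Of the 56 members called, 41 also had a fold change below 0 with library totals, and 44 with limma on log2(FPKM + 1). In complex I, 2 of the 7 core subunits, among them the carriers of the flavin and iron-sulfur clusters, were lower on the TMM scale (median -0.34), against 23 of 31 accessory subunits (median -1.65). Core subunits also had longer transcripts (median 1540 bases against 682), and with the trend of length and abundance removed, as described later, 0 core subunits were lower and 2 higher (median 0.21), against 3 accessory subunits lower and 1 higher (median 0.13). The accessory subunit Ndufa3 had the largest difference of any member called. Its TMM-scaled CPM (counts scaled to library size times the TMM factor) ran from 56.3 to 326 (median 272) over the 7 macrophage libraries and from 22.0 to 87.7 (median 32.3) in microglia. The ranges met because the male WT PFF pair was inverted, with 56.3 in macrophages and 87.7 in microglia. Its log2 fold change was -2.77 ± 0.49 (SE, adjusted p = 0.00194, edgeR). For Ndufb7, 135 to 421 CPM (median 319) in macrophages stood against 45.6 to 120 (median 56.0) in microglia with no overlap, a log2 fold change of -2.16 ± 0.33. Ndufa13, also known as GRIM-19, Ndufb2, Ndufa1 and Ndufb8 followed at -2.08 to -2.0.

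Among core subunits of complex I, Ndufs7 (-1.37 ± 0.28) and Ndufv2 (-0.97 ± 0.26) were lower in microglia. The others did not pass the test, among them Ndufs8 at -0.34 ± 0.26 and Ndufv1 at 0.71 ± 0.50 on the log2 scale. Without the male WT PFF pair Ndufs8 was called as well (-0.55 ± 0.18). Ndufs3, of the arm that hands electrons to ubiquinone, had 28.9 to 86.6 CPM (median 46.3) in macrophages and 41.4 to 72.9 (median 50.4) in microglia, and Ndufs1, the largest subunit, 17.8 to 72.6 (median 22.5) and 15.2 to 33.4 (median 27.1). Both pairs of ranges overlapped. Neither was called, at 0.11 ± 0.29 and 0.02 ± 0.41, nor without the male WT PFF pair, whose macrophage library held the 72.6 CPM of Ndufs1, at 0.30 ± 0.21 and 0.34 ± 0.24.

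Complex II had a median of -0.66, against -1.48, -1.57, -2.05 and -1.58 for complexes I, III, IV and V. The anchor Sdhd alone was called (-1.41 ± 0.22, adjusted p = 0.000941, edgeR), with 104 to 214 CPM in macrophages and 48.8 to 65.0 in microglia and no overlap. In FPKM Sdhd had the higher median in microglia (85.0 against 68.0), with overlapping ranges. Its partner Sdhc, the other anchor, had 27.7 to 67.9 CPM and 22.3 to 56.5 CPM, a difference of -0.02 ± 0.29. Sdhb missed the threshold (-1.07 ± 0.34, adjusted p = 0.0505, edgeR) and Sdha had -0.26 ± 0.20. Without the male WT PFF pair Sdhb was called at -1.38 ± 0.19.

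In complex III all 5 small subunits were lower in microglia (Uqcr10, Uqcrh, Uqcrb, Uqcr11 and Uqcrq, -2.19 to -1.24), and none of the 3 larger ones was, with -0.62 ± 0.30 for the Rieske protein Uqcrfs1, -0.47 ± 0.19 for Uqcrc1 and 0.66 ± 0.76 for Uqcrc2. The small subunits also had shorter transcripts (median 503 bases against 1665). With the trend of length and abundance removed, none of either kind was called (medians 0.08 and 0.4). Uqcrh had 104 to 271 CPM (median 181) in macrophages and 33.6 to 74.0 (median 42.4) in microglia. Uqcrc1 had 172 to 323 (median 230) and 141 to 212 (median 176). Only the first pair of ranges was apart.

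Complex IV held the 2 members with the smallest adjusted p, Cox6b1 and Cox5a. All 10 widely expressed subunits were lower in microglia, from -2.43 ± 0.32 for Cox5a to -1.19 ± 0.23 for Cox5b, the matrix-side subunits. Cox5a had 83.8 to 268 CPM (median 197) in macrophages and 23.1 to 60.9 (median 32.1) in microglia, and Cox6b1 244 to 665 (median 427) and 76.5 to 152, both without overlap. The adjusted p was 0.000291 for Cox5a and 0.00027 for Cox6b1 (edgeR). None of the 4 tissue-restricted isoforms tested passed, with SEs of 1.12 to 2.03, but Cox7a1 was called without the male WT PFF pair (-3.95 ± 1.25, adjusted p = 0.0262, edgeR). Cox4i1, a further subunit of the oxidase outside the selection, was lower as well (-1.18 ± 0.20).

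Complex V had the largest share of members called. In the catalytic head and central stalk, Atp5a1 (-0.71 ± 0.18), Atp5b (-0.71 ± 0.19), Atp5c1 (-1.46 ± 0.21) and Atp5e (-1.84 ± 0.29) were lower in microglia. Atp5d was not called (-1.02 ± 0.38), but it was without the male WT PFF pair (-1.34 ± 0.22). All 4 members of the peripheral stalk (Atp5j, Atp5h, Atp5o and Atp5pb, -1.87 to -1.07) and all 5 other membrane subunits were lower. Among the latter Atp5k, the e subunit of the dimer, had 20.0 to 142 CPM (median 102) in macrophages and 8.32 to 55.3 (median 14.9) in microglia, and Atp5l 54.2 to 462 (median 337) and 33.7 to 87.9 (median 49.2). Both overlapped through the male WT PFF pair, and their log2 fold changes were -2.52 ± 0.56 and -2.49 ± 0.45. Atp5b had 238 to 411 CPM (median 270) and 159 to 233 (median 184), without overlap on the TMM scale. In FPKM its medians were 102 in macrophages and 188 in microglia, and those of Atp5a1 45.3 and 95.9, with overlapping ranges. Of the c-ring genes Atp5g1 (-1.33 ± 0.29) and Atp5g3 (-1.73 ± 0.37) were called. Atp5g2 was not (-0.75 ± 0.32), but it was called without the male WT PFF pair (-1.0 ± 0.20).

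Taking libraries one by one on the TMM scale, all 7 microglia libraries lay below all 7 macrophage libraries for 33 of the 81 members (40.7%), against 7.57% of all genes tested. For no member did all 7 lie above. The sums of each complex were apart on this scale as well, with 2570 to 7265 CPM in macrophages and 1417 to 2401 in microglia for complex I, 505 to 730 and 286 to 426 for complex II, 851 to 1848 and 434 to 710 for complex III, 1126 to 2966 and 438 to 862 for complex IV, and 1838 to 3394 and 845 to 1304 for complex V. As shares of all counts they overlapped for every complex, for example 0.157% to 0.636% and 0.104% to 0.368% for complex I. Median shares over all libraries of a population were 0.312% in macrophages and 0.316% in microglia for complex I, and 0.0384% and 0.0655% for complex II. For complexes III, IV and V they were 0.0817% and 0.0944%, 0.124% and 0.108%, and 0.165% and 0.184%. On the TMM scale the pairs differed among themselves. In 6 pairs the median difference of the members was between -2.0 (M WT MONO) and -1.42 (F CD163KO PFF), and in M WT PFF it was -0.19, with all genes at 0.58. In the excluded M CD163KO MONO pair it was 0.42, opposite to the others, and 25 of 81 members were lower in microglia. Without the M WT PFF pair 64 members were lower, and without that pair and the F CD163KO MONO pair, whose microglia library held Y-linked counts, 64 again. The former set gained 8 members, which were Ndufc2 (-0.95 ± 0.22), Ndufs8, Ndufb5, Ndufb6, Sdhb, Cox7a1, Atp5d and Atp5g2. Calls rose over all genes as well, to 19.5% lower in the first case and 18.3% in the other.

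**Figure D3:**
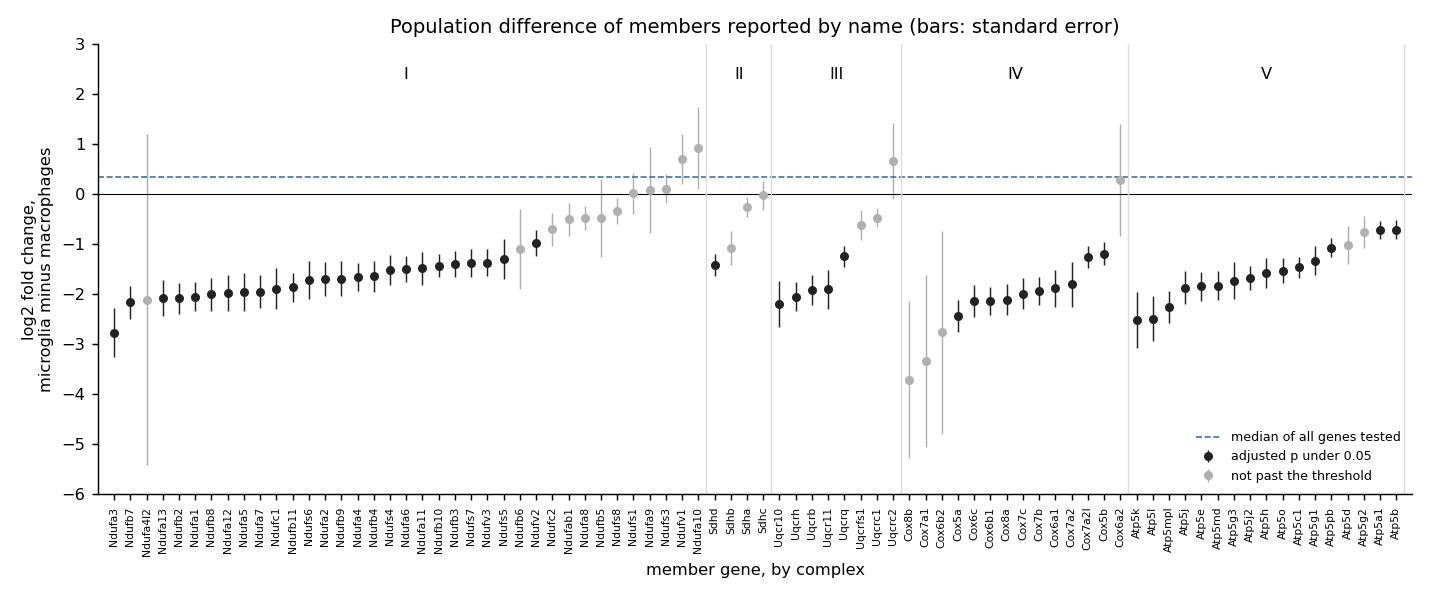
Log2 fold change (y axis) of the members tested that are reported by name (x axis, grouped by complex and ordered within it) between microglia and macrophages, with its standard error, from 7 matched pairs of libraries on the TMM scale. Black points passed an adjusted p of 0.05, gray ones did not, and the dashed line is the median of all genes tested (0.35). All 56 black points lie below 0 on this scale, whereas with library totals as the scale the 5 members called were higher.

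The population difference of a member followed the length of its transcript. Over the 81 members Spearman's rho between log2 fold change and length was 0.69, a description over genes that share libraries and are not independent. The 56 members called had a median length of 579 bases and the 25 others 986 bases, against 2826 for all genes tested. Over all genes tested rho was 0.29, in the same direction, and their median difference rose from -1.04 in the 10% of genes with the shortest transcripts (up to 1112 bases) to 1.01 in the 10% with the longest. Of the shortest 10%, 36.1% of all genes were called lower, and 45 of the 60 members among them. Between log2 fold change and mean abundance rho was -0.11 over the members and -0.26 over all genes. Of the 10% most abundant genes 39.9% were called lower, and these genes included 44 members, 38 of them called. Members of low abundance also had negative medians, -2.91 and -3.05 for the 2 members in each of the second and the third lowest 10% of genes, with none called.

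When each library's trend with transcript length and mean abundance was removed before the test, an alternative chosen after the data were seen, 8 of 81 members were called, 5 lower and 3 higher, against 8.41% of all genes lower and 5.63% higher. The members' median was 0.08 and that of all genes 0.19. The members still lower were Cox7b (-1.09 ± 0.25) and Cox5a (-0.83 ± 0.23) of complex IV and the accessory subunits Ndufa11 (-1.36 ± 0.34), Ndufs4 (-1.12 ± 0.29) and Ndufb2 (-0.93 ± 0.26) of complex I. Higher were Ndufs3 (1.25 ± 0.37) and Ndufs8 (1.08 ± 0.22), both core subunits of the iron-sulfur arm, and the accessory subunit Ndufa8 (1.01 ± 0.30). None of the 17 members of complex V, the 8 of complex III or the 4 of complex II was called. The number of sorted cells and the marker sums given above differ between the populations as well, and cannot be told apart from the population itself.

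**Figure D4:**
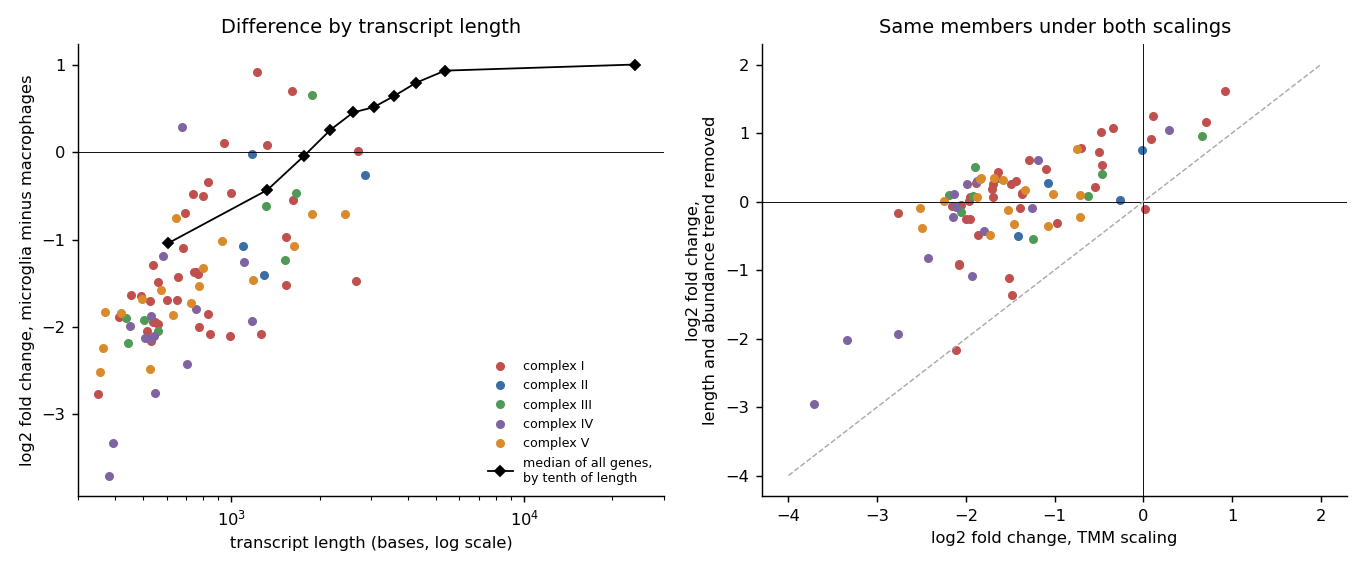
Left: log2 fold change between microglia and macrophages (y axis, TMM scale) against transcript length in bases (x axis, log scale) for the 81 members tested, colored by complex, with the median of all genes tested in each of 10 bins of length as diamonds from -1.04 to 1.01. Right: the same members with the trend of length and abundance removed (y axis) against the TMM scale (x axis), where the median moves from -1.58 to 0.08 and the dashed line marks equal values.

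For 6 members the spread came largely from 1 library. In M WT PFF macrophages Ndufa10 had 0 counts and Ndufa9 1, Uqcrc2 2, Ndufb5 4, Ndufb6 4 and Ndufv1 43, each under 10% of the median of the other macrophage libraries. Elsewhere in macrophages they were well covered, for example Uqcrc2 with 32.2 to 60.3 CPM against 0.0815, Ndufa9 with 54.2 to 126 CPM against 0.0407, and Ndufv1 with 26.6 to 58.2 CPM against 1.75. Of the 77 members checked, Cox6a2 alone was as low in other macrophage libraries (0 in M WT MONO and M CD163KO MONO), and none was in a microglia library. Without that pair the population difference was -0.96 ± 0.23 for Ndufb5 and -1.59 ± 0.22 for Ndufb6, which were then called, and 0.44 ± 0.22 for Ndufa10, -0.41 ± 0.20 for Ndufa9, 0.29 ± 0.22 for Ndufv1 and 0.17 ± 0.21 for Uqcrc2, which were not.

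Genes of the pathway outside the member patterns were split by the same test on the TMM scale. Cycs, the mobile electron carrier cytochrome c, was lower in microglia (-2.37 ± 0.26, with 154 to 464 CPM in macrophages and 30.1 to 75.8 in microglia), while Cyc1, cytochrome c1, had 41.6 to 78.7 and 45.8 to 72.7 CPM. The ATP synthase inhibitor Atpif1 was lower (-1.71 ± 0.33). Of the assembly factors, 2 of 15 tested for complex I (Ndufaf8 and Tmem126b) and 6 of 20 for complex IV, among them Pet100, Cox14 and Cox17, were lower, against 11.7% of all genes, and none of the 4 for complex II, the 6 for complex III or the 4 for complex V was called. Of 13 citric acid cycle genes 3 were lower (Mdh2, Suclg1 and Sucla2), and of 6 carriers Vdac3. Of 14 regulators of mitochondrial biogenesis only the mitochondrial helicase Twnk was called, and it was higher in microglia (4.99 ± 1.35), as were 6.48% of all genes, so the counts for complex I assembly and for the regulators are near the share of all genes. Of genes named after their values were seen, Nrf1, whose motif is marked above, had a difference of -0.25 ± 0.33 and Tfam, which packages mitochondrial DNA, 0.14 ± 0.68. No mitochondrially encoded subunit was listed.

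The genotype comparison asked whether loss of Cd163 changed these genes, with sex and treatment as covariates. In macrophages 0 of 81 members were called, against 0.00834% of 11988 genes, and none had an unadjusted p under 0.05 (edgeR, with 0 by DESeq2 and by limma as well). The members' median was 0.15, that of all genes 0.15. Leaving out single libraries moved the members' median from -0.05 (without M WT PFF, all genes -0.02) to 0.61 (without F WT PFF, all genes 0.54). It was -0.14 with the excluded M CD163KO MONO library (all genes 0.03) and -0.20 without M WT PFF and F CD163KO MONO (all genes 0.09), so its sign rested on which libraries entered. In microglia 0 of 79 members were called, against 0.0% of 12725 genes, again with none at an unadjusted p under 0.05 (0 by DESeq2 and limma). The medians were 0.04 and -0.02. The members' median was -0.16 without F CD163KO MONO, the library with Y-linked counts, 0.20 without M CD163KO PFF and 0.19 with the excluded M CD163KO MONO library, while that of all genes stayed between -0.04 and 0.0, so here too the sign turned with single libraries. The members with the smallest p were Atp5b in macrophages (-0.51 ± 0.31) and Atp5d in microglia (-0.60 ± 0.37), both of the ATP synthase head.

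The treatment comparison set PFF against MONO, with sex and genotype as covariates. In macrophages 0 of 81 members were called (0.0% of 11988 genes, edgeR, with 0 by DESeq2 and limma), and 4 had an unadjusted p under 0.05, all with negative differences, against 0.976% of all genes at such a p in either direction. None had such a p without M WT MONO, without M WT PFF and F CD163KO MONO, with the excluded M CD163KO MONO library or with the trend of length and abundance removed, and 12 had one without F WT PFF (2.04% of all genes). The members' median was -0.55 and that of all genes -0.14. Median differences by complex were -0.62 for complex I, -0.09 for complex II, -0.40 for complex III, -0.50 for complex IV and -0.56 for complex V. The 4 members were Ndufa4, Ndufa1, Ndufb11 and Atp5md, with log2 fold changes of -1.18 to -0.94. Ndufa4, now also counted as a subunit of complex IV, had 149, 162 and 295 CPM in the MONO macrophages (F WT, F CD163KO and M WT) and 75.1, 98.9, 86.7 and 116 in the PFF macrophages (F WT, F CD163KO, M WT and M CD163KO). The groups did not overlap (-1.18 ± 0.34, unadjusted p = 0.00892, adjusted p = 1, edgeR), but the excluded M CD163KO MONO library, at 66.6 CPM, lay below all of them.

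All 4 PFF macrophage libraries lay below all 3 MONO libraries for 14 of the 81 members, against 3.36% of all genes tested, and above them for 0 (1.89%). The difference depended on single libraries. M WT MONO macrophages had the highest sum of members of all libraries (16203 CPM), and without that library the median was -0.11 (all genes -0.01). Without M WT PFF it was -0.25 (all genes 0.02). Without F WT PFF it was -0.99, but all genes moved along to -0.57, so that members minus all genes was -0.42, against -0.41 with all libraries of the test. Inclusion of the excluded M CD163KO MONO library moved it to -0.21 (all genes -0.03), and leaving out M WT PFF and F CD163KO MONO to -0.11, with all genes at -0.10. Within sex and genotype, with 1 library against 1 and no test, the members' median difference between PFF and MONO macrophages was 0.07 in F WT, -0.33 in F CD163KO, -1.52 in M WT and, with the excluded library, 1.05 in M CD163KO. Of the 81 members 38 were lower with PFF in F WT, 58 in F CD163KO, 68 in M WT and 15 in M CD163KO, so that the pairs did not share a direction. Neutrophil markers summed to 120567 FPKM in F WT MONO and 22068 in F WT PFF macrophages, to 98478 and 32748 in F CD163KO and to 118058 and 70277 in M WT. In M CD163KO they ran the other way, with 81103 in the excluded MONO library and 134238 in PFF, and their part in these differences was not tested.

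In microglia 0 of 79 members were called between PFF and MONO (0.0% of 12725 genes, edgeR, with 0 by DESeq2 and limma), and 1 had an unadjusted p under 0.05, as did 6.04% of all genes. It was Cox8a, which had 39.3, 49.8 and 59.5 CPM in the MONO libraries (F CD163KO, F WT and M WT) and 66.8, 77.1, 72.0 and 92.5 in the PFF libraries (F CD163KO, F WT, M CD163KO and M WT). The groups did not overlap, and the log2 fold change was 0.66 ± 0.27 (unadjusted p = 0.03, adjusted p = 0.773, edgeR). The excluded M CD163KO MONO library was higher still, at 103 CPM. Over all members tested the median was 0.12, and 0.10 over all genes. It was 0.37 without F CD163KO MONO (all genes 0.08), 0.0 without M WT PFF (0.09) and -0.07 with the excluded M CD163KO MONO library (0.03). With library totals as the scale, the medians were -0.42 and -0.38.

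**Figure D5:**
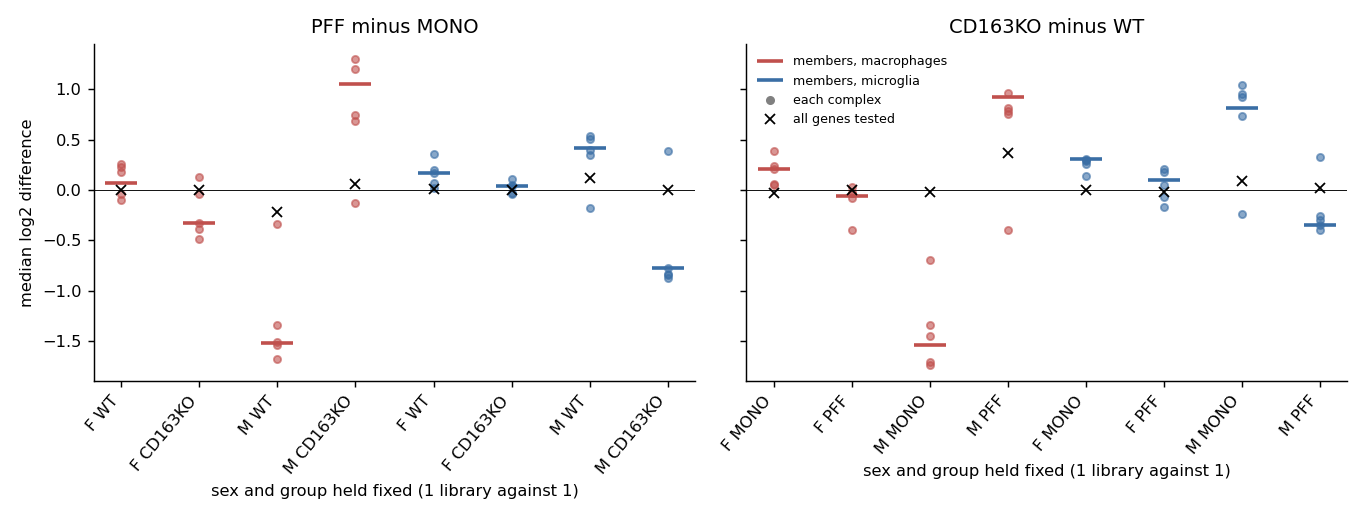
Median log2 difference of the members (horizontal lines), of each complex (circles) and of all genes tested (crosses) between single libraries, for PFF minus MONO (left) and CD163KO minus WT (right), in macrophages (red) and microglia (blue), on the TMM scale. Each position holds sex and the other factor fixed, with 1 library against 1 and no error bar. The medians of the members (lines) spread from -1.54 to 1.05 in the male pairs and from -0.33 to 0.31 in the female pairs. M CD163KO MONO enters the outermost values of the male pairs.

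Whether the PFF response differed between genotypes was tested as an interaction. In macrophages 0 of 81 members were called (0.0% of 13020 genes) with none at an unadjusted p under 0.05, and in microglia 0 of 82 (0.0211% of 14225 genes) with 4, namely Cox7c, Atp5k, Cox6c and Ndufa13, at log2 differences of -2.34 to -1.46, a share near the 4.75% of all genes at such a p (edgeR, with 0 by DESeq2 and limma in both). In each fit the CD163KO MONO arm was 1 library, in microglia the one labelled F CD163KO MONO that held Y-linked counts. Cox7c had 104 CPM there, against 33.6 to 111 in the other microglia libraries tested. With F WT PFF or F CD163KO PFF left out, the WT PFF or CD163KO PFF arm was also 1 male library. Calls in such fits rest on single libraries. Leaving out F WT PFF macrophages gave 11 members called, 10 higher and 1 lower, while 3374 of 12820 genes were called (26.3%). The 6 members at or near 0 in M WT PFF macrophages were among the 10. Leaving out either F CD163KO PFF or F WT PFF microglia gave 2 members called, Cox7c and Atp5k, while 0.943% and 1.53% of all genes were called.

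Neither the genotype effect nor the PFF effect was found to differ between the populations. For genotype 0 of 81 members were called (0.0% of 13704 genes) and none had an unadjusted p under 0.05. For PFF 0 of 81 were called (0.0% of 13704 genes) and 1 had an unadjusted p under 0.05, against 0.89% of all genes (edgeR, with 0 by DESeq2 and limma in both). That member was Ndufa4, whose PFF difference was 1.37 ± 0.48 higher in microglia than in macrophages (adjusted p = 1, edgeR). The smallest SE of any member was 0.30 on the log2 scale in the genotype and PFF fits of macrophages, and 0.26 and 0.27 in those of microglia. In both tests of a difference between populations it was 0.45. A call needed a change well above 1 SE, and Ndufa4 at -1.18 ± 0.34 between PFF and MONO macrophages was not called. Changes of such a size could therefore be missed with these libraries.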

How the data were processed

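RNA of sorted macrophages and microglia was measured by SMART-seq2 in 16 libraries. According to the study's methods and the submitters' processing notes, rRNA and low-quality reads were removed, clean reads were mapped with Bowtie2 and expression was estimated with RSEM. The notes name mm10 and give no versions. The deposited expected counts are RSEM's estimated counts per RefSeq transcript without normalization. The deposited FPKM were scaled by the authors to transcript length and assigned reads. The batch correction and outlier removal that the methods describe could not be traced to these tables, and no batch is given per library.

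Of 27787 transcripts 27632 (99.4%) were paired with a symbol through the RefSeq table of GRCm38.p6, expected counts and FPKM were summed per symbol, and unlisted genes were taken as 0. Summed counts were rounded, scaled by TMM factors over all 16 libraries, filtered with filterByExpr and tested with edgeR 4.0.16 (glmQLFit, glmQLFTest, R 4.3.3). The p-values were adjusted by Benjamini-Hochberg over all genes tested, and genes under 0.05 were called. The population test used 7 matched combinations as a block. The other tests used sex and genotype or treatment as covariates, and their interaction where stated. Differences are microglia minus macrophages, CD163KO minus WT and PFF minus MONO. The fits were tested on simulated data.

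Alternatives were library totals, TMM over the libraries of a fit, DESeq2 1.42.0, limma 3.58.1 on log2(FPKM + 1), no filter, a fold threshold, the excluded libraries included, additive covariates and each library left out. Removal of the trend with length and abundance (loess, span 0.5) and leaving out M WT PFF with F CD163KO MONO were chosen after seeing the data. Members and lists were chosen with earlier results of these data known. Statistics are given for at most 30 members called per comparison, the 3 highest of each complex and paralog groups, and for at most 3 called genes per further list. Other members may be named under their complex, and exceptions are named as such. For 1 member, which enters the counts, values are not reported here by name. Values were tabulated with Python 3.11.15, pandas 2.3.3 and scipy 1.17.1, and plotted with matplotlib 3.10.9.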

Additional observations from a re-analysis of the deposited data

Results flagged for a closer look

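Sums of the members by complex were screened for single libraries far from the other 7 of their population (Dixon's ratio above 0.526). Of 30 sums 7 held such a library, where chance gives about 1 in 20 groups. The sums are 3 measures of the same 5 complexes in the same libraries, so they are not independent and the rate cannot be compared directly. In M WT MONO macrophages, complex I took 0.636% of all counts against 0.157% to 0.383% in the other macrophage libraries, and complex IV took 0.259% against 0.0751% to 0.151%. In M WT PFF microglia, complex I took 0.104% of counts against 0.294% to 0.368% in the other microglia libraries, and complex IV took 0.0372% against 0.0912% to 0.112%. The same library had the highest share of complex III in the members' FPKM, 13.8% against 11.1% to 12.3%. F WT PFF macrophages likewise had a complex III share of 13.4% against 11.6% to 12.4%. The excluded M CD163KO MONO microglia had a complex I sum of 3587 TMM-scaled CPM against 1417 to 2401.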

How the results depend on the processing

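In the comparisons of genotype, PFF and their interactions no member was called in the main test, so a count of 0 under an alternative says nothing of stability there. In the population comparison 56 members were called. With library totals 5 were called, with limma on log2(FPKM + 1) 9 (6 higher and 3 lower in microglia, against 42.0% and 5.08% of all genes) and with the trend of length and abundance removed 8. Leaving out each matched pair in turn gave 51 to 64 lower, with 9.11% to 19.5% of all genes lower, the highest of both without M WT PFF. With that trend removed, 15 of the 56 members turned to the other side of the median gene, namely Atp5e (0.14), Atp5h (0.11), Atp5j2 (0.15), Atp5md (0.15), Cox5b (0.41), Cox6a1 (0.10), Cox7c (0.06), Ndufa2 (0.07), Ndufa4 (0.16), Ndufa6 (0.05), Ndufb10 (0.11), Ndufb4 (0.24), Ndufc1 (0.07), Ndufs5 (0.41) and Uqcr11 (0.32, log2 above the median gene), and the cause was not tested. Over all 952 member values under 17 alternatives, with direction taken against the median gene, 757 kept direction and call, 180 kept the direction only and 15 reversed. By the sign of the fold change itself, 41 of the 56 members stayed below 0 with library totals, 44 with limma and 28 with the trend removed, and all 56 under each of the other alternatives. For the interaction of genotype and PFF, leaving out each library in turn gave 0 to 11 members in macrophages (11 without F WT PFF, with 26.3% of all genes called) and 0 to 2 in microglia (2 without F CD163KO PFF, 2 without F WT PFF, Cox7c and Atp5k in both, with 0.943% and 1.53% of all genes). These fits could not be made without F CD163KO MONO, and without F WT PFF or F CD163KO PFF the arm concerned was 1 male library. The population comparison was paired by matched combination in its main design, and the labels give no replicate numbers for a further block. Of the 5 members with a median FPKM under 10, Cox7b2 could not be tested and Cox8b, Cox7a1, Cox6b2 and Ndufa4l2 had SEs of 1.57 to 3.31 in that comparison, and none of them was called, though Cox7a1 was without the M WT PFF pair (-3.95 ± 1.25).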
